A study of Mus musculus with 36 samples.

Results

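The genes that drive the cell cycle and DNA replication were read in 36 mouse mammary tumors grown from the 67NR or 66cl4 cell lines with or without knockdown (KD) of BPTF. The list held 44 genes chosen by name for their known part in cell division, and 43 of them had a probe set assigned to a single gene, of 12394 genes read on the arrays. *Ccnb1* was not analysed here. 67NR and 66cl4 are mammary tumor lines of BALB/c origin, and BPTF is the largest subunit of the chromatin remodeling complex NURF. Both lines were transduced with a retrovirus that carried a short hairpin RNA (shRNA), a control shRNA in the control tumors and an shRNA to *Bptf* in the BPTF KD tumors, so that every tumor came from transduced cells. Female mice 6 to 8 weeks old received 100000 67NR cells or 10000 66cl4 cells in the fourth mammary fat pad, and tumors were taken after 21 days for 67NR and 28 days for 66cl4. The hosts were BALB/c mice or NSG mice (written by the authors as NOD/SCID/Ifrg2r -/-), which lack T, B and NK cells. Each pairing of a line with a host had 3 control and 6 BPTF KD tumors, listed as separate samples, and p-values measure the spread between these tumors. Cell line cannot be told apart from the number of cells injected and the day of harvest, and which of the *Bptf* shRNAs each BPTF KD tumor carried is not given in the labels used here. A level below is the log2 of the probe set intensity after robust multi-array averaging (RMA), so a difference of 1 is a 2-fold change, and levels were compared only within a gene.

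A cell enters division when D-type cyclins with CDK4, and then E-type cyclins with CDK2, release the E2F transcription factors that switch on the genes for DNA synthesis. Replication origins are licensed by CDC6 and the MCM helicase, and later cyclin A and B with CDK1, driven by FOXM1, PLK1 and the Aurora kinases, carry the cell into mitosis, where the spindle checkpoint holds the chromosomes until all are attached. The inhibitor p21 (*Cdkn1a*) and the *Cdkn2a* locus act against this sequence, and MYC promotes it. In a bulk tumor the transcripts of these genes are widely read as a sign of how many cells are dividing. Because each array held RNA of a whole tumor, fewer dividing cells and less of the transcript per cell cannot be told apart.

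Many members share short promoter motifs, and the stretches of 150 bases before the start of 4 of them are shown because they include the standard proliferation marker (*Mki67*) and the 3 members that differed most between the lines in NSG mice (*Prc1*, *Cdc6* and *E2f8*). Capitals mark an E2F motif (searched as TTCCCGC and as its variants with TTGGCGC, with TTCGCGC and with TTGCCGC), a cell cycle homology region (CHR; TTTGAA or TTCGAA) or CCAAT, searched on both strands and marked where the motif lies wholly inside the stretch. The sequences are from RefSeq on GRCm38.p6 and run 5′ to 3′ on the strand of the gene, the minus strand for *Mki67* at chr7:135716380-135716529 and *E2f8* at chr7:48881597-48881746 and the plus strand for *Prc1* at chr7:80294301-80294450 and *Cdc6* at chr11:98908001-98908150. The start used was not the outermost one of the gene. The stretches of *Cdc6* and *E2f8* lie inside the gene span (chr11:98907709-98923942 and chr7:48866429-48882073), and those of *Mki67* and *Prc1* lie partly inside it.
Mki67: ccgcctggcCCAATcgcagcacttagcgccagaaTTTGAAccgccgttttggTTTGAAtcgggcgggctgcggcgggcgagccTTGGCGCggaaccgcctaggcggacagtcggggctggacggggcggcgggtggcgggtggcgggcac
Prc1: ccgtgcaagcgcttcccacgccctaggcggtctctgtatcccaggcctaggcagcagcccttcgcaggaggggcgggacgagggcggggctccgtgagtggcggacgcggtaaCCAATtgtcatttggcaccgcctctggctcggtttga
Cdc6: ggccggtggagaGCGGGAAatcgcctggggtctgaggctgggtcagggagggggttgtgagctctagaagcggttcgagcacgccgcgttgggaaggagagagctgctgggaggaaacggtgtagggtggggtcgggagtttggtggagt
E2f8: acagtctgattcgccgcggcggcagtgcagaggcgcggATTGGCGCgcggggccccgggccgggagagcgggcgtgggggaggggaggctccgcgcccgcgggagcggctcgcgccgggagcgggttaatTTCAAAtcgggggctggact
*Mki67* held all 3 motifs in this stretch, *E2f8* had an E2F motif that overlapped CCAAT and a CHR, *Cdc6* had an E2F motif, and *Prc1* had CCAAT. In the longer window of 250 bases before to 50 bases after the start, found for 34 of the 44 listed genes, an E2F motif was present in 13 (38.2%) against 10.9% of 27025 genes. A CHR was present in 14 (41.2%) against 21.7%, CCAAT in 25 (73.5%) against 41.1%, and CHR with CCAAT in 14 (41.2%) against 8.61%. The 14 genes with both CHR and CCAAT included the mitotic genes *Plk1*, *Aurka*, *Bub1*, *Cdc20*, *Ccnb2*, *Kif11* and *Prc1*, and beside them *Mki67*, *Top2a*, *E2f8*, *Mcm2* and *Mcm7*. These shares describe letters in a window, and binding was not measured.

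*Bptf* itself was read first, as a check of the labels. In 66cl4 tumors of BALB/c mice the 3 controls were at 9.50 to 10.61 and the 6 BPTF KD tumors at 8.68 to 9.12, without overlap, a difference of -1.08 (exact permutation p = 0.0119, the smallest that 84 splits allow, and 0.0952 adjusted over 8 tests). The difference was -0.33 in 66cl4 tumors of NSG mice (exact permutation p = 0.05952), -0.27 in 67NR tumors of NSG mice (exact permutation p = 0.3214) and -0.055 in 67NR tumors of BALB/c mice (exact permutation p = 0.9286), with overlapping groups. BPTF KD is used below as the label of a tumor. The T and NK cell list (10 genes, mean log2 level) was at 6.93 to 10.43 in tumors of BALB/c mice and at 5.46 to 5.69 in tumors of NSG mice. The epithelial list (9 genes) was at 5.23 to 7.09 in 67NR and at 6.39 to 7.94 in 66cl4 tumors, beside array medians of 7.03 to 7.21 over all genes. A skeletal muscle list stood at 11.72 in 67NR BALB/c BPTF KD replicate 3 against 5.46 to 7.43 in the other BPTF KD tumors of that set, and at 6.55 to 11.16 in the 9 66cl4 tumors of BALB/c mice.

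**Figure D1:**
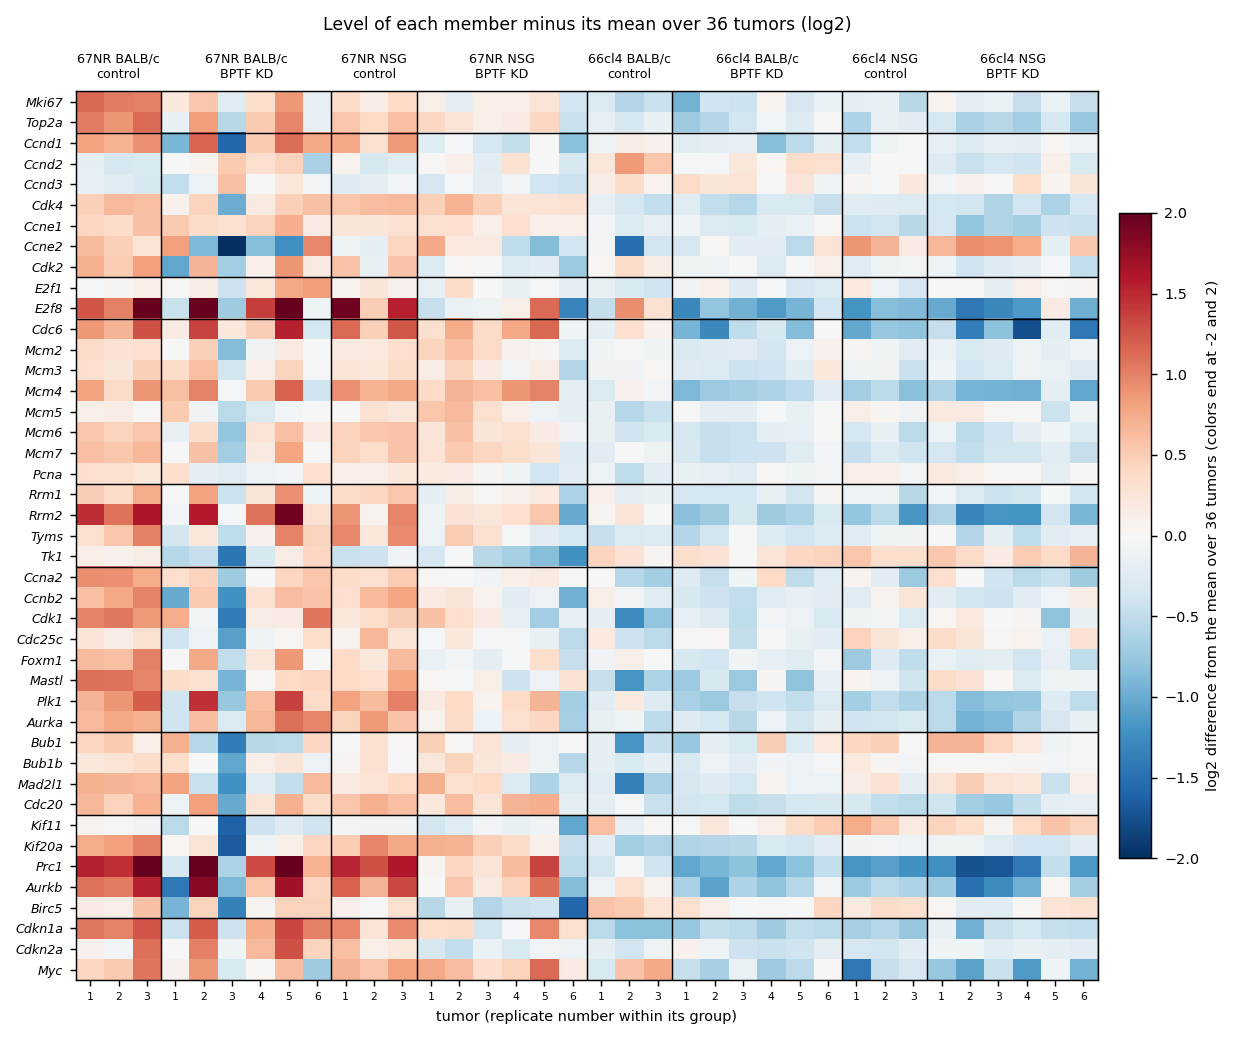
Level of each of the 43 members minus its mean over 36 tumors (log2 difference, colors end at -2 and 2), with genes in rows by role and tumors in columns by group. Most members are above their mean in 67NR controls and below it in 66cl4 tumors, and 67NR BALB/c BPTF KD replicate 3 is the lowest of its group of 6 for 32 of 43 members.

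The members varied together between tumors. Their mean deviation from the average over all tumors was 0.54 to 0.75 in 67NR controls of BALB/c mice and 0.33 to 0.55 in 67NR controls of NSG mice, and -0.31 to -0.10 in the 66cl4 controls of both hosts. The 67NR BPTF KD tumors spanned a wide range, from -0.70 to 0.68 in BALB/c mice and from -0.42 to 0.27 in NSG mice. The 66cl4 BPTF KD tumors stayed between -0.37 and -0.08. The controls of the lines did not overlap in either host. The spread was largest among the 67NR BPTF KD tumors of BALB/c mice, where the median SD of the members was 0.581 against 0.337 for all genes, and in the 3 controls of that set it was 0.121 against 0.14. Replicate 3 of these BPTF KD tumors was the lowest of 6 for 32 of 43 members, and replicate 6 of the 67NR BPTF KD tumors of NSG mice was likewise lowest for 32 of 43.

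67NR tumors were compared with 66cl4 tumors of the same host by limma, with control and BPTF KD tumors averaged and p-values adjusted by Benjamini-Hochberg over all genes (threshold 0.05). In BALB/c mice 27 of 43 members were higher and 1 was lower in 67NR, where 13.0% of all genes were called higher and 13.5% lower. In NSG mice 27 were higher and 5 were lower, against 24.5% and 26.6% of all genes. The median difference of the members was 0.60 in BALB/c mice (0.015 over all genes) and 0.42 in NSG mice (-0.04 over all genes). These comparisons used separate tumors of the same cell lines. Between them 24 members were higher in both hosts, none was lower in both, and 39 of 43 had the same sign. The shares of all genes called in both hosts or of the same sign were not computed, so these counts have no background beside them. Among controls alone 35 of 43 members (81.4%) were called in BALB/c mice against 26.1% of all genes, and 30 (69.8%) in NSG mice against 36.2%. Among BPTF KD tumors alone 8 of 43 members (18.6%) were called in BALB/c mice, near the 14.0% of all genes, and 22 (51.2%) in NSG mice against 42.5%. The macrophage list (10 genes) moved with the line: it was at 11.76 to 11.85 in 67NR and 12.51 to 12.77 in 66cl4 controls of BALB/c mice, and at 11.20 to 11.75 in the 67NR and 12.29 to 12.63 in the 66cl4 tumors of NSG mice, without overlap. In the BPTF KD tumors of BALB/c mice it was at 11.52 to 12.66 and 12.39 to 12.72, with overlap. The skeletal muscle list was further apart in BALB/c controls, at 5.584 to 5.685 in 67NR and 8.667 to 11.016 in 66cl4. It overlapped between the lines in the BPTF KD tumors of BALB/c mice and in NSG mice. The epithelial list was at 5.232 to 5.524 in 67NR and 6.529 to 6.87 in 66cl4 controls of BALB/c mice. The part of these lists was not tested. The number of cells injected and the time of growth differed with the line and cannot be told apart from it.

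**Figure D2:**
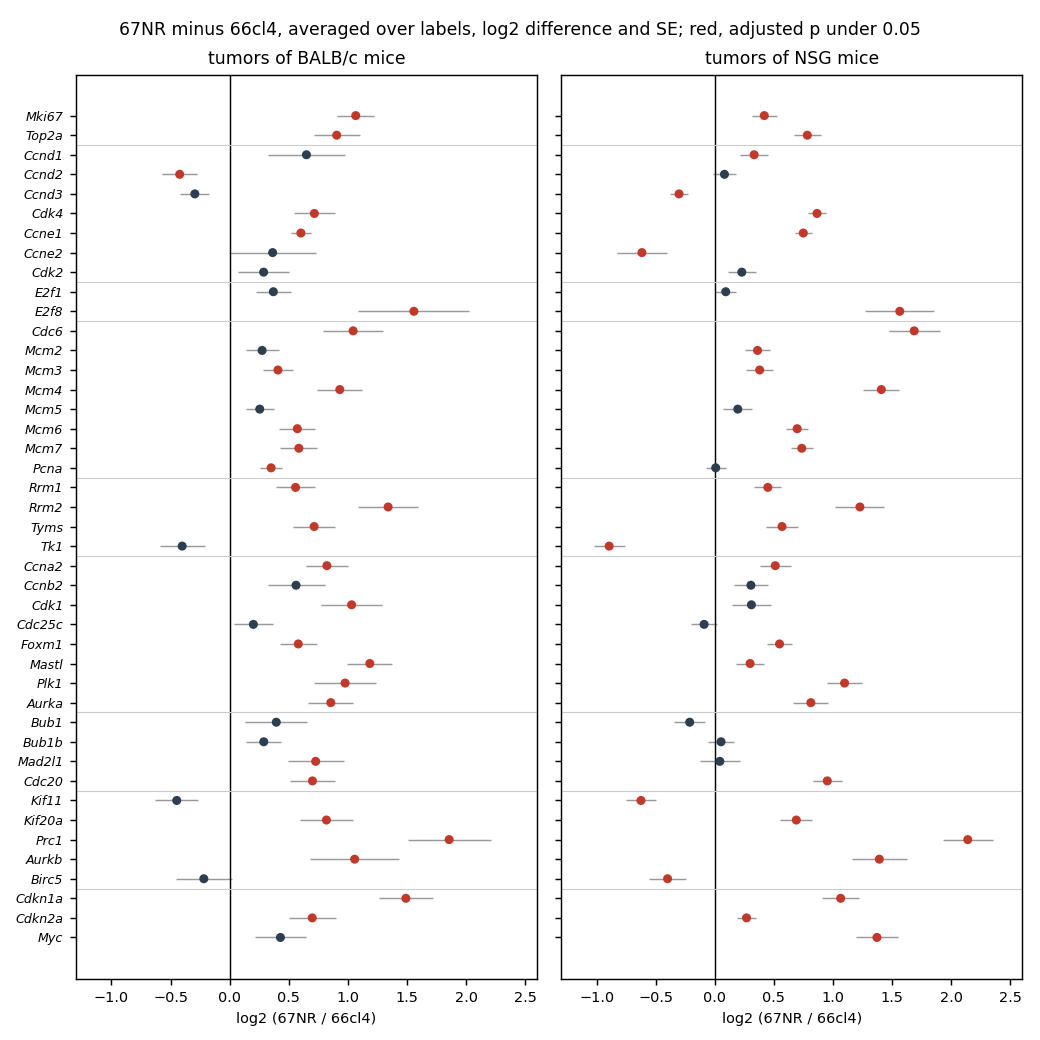
Difference between 67NR and 66cl4 tumors (log2, averaged over labels) for each member, with bars for the SE, in BALB/c mice (left) and NSG mice (right). Red points had an adjusted p under 0.05 by limma, 28 of 43 in BALB/c mice and 32 of 43 in NSG mice.

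Among the proliferation markers, *Mki67*, which encodes the Ki-67 antigen of dividing cells, was at 12.40, 12.27 and 12.26 in 67NR controls of BALB/c mice and at 10.95, 10.66 and 10.80 in the 66cl4 controls. The controls did not overlap, whereas the 6 BPTF KD tumors of each line, at 11.01 to 12.11 and 10.30 to 11.32, did. Averaged over labels the difference was 1.07 ± 0.16 SE (adjusted p = 8.35e-05), a 2.09-fold higher level in 67NR. *Top2a*, the topoisomerase that untangles replicated chromosomes, was 0.91 ± 0.19 SE higher in 67NR (adjusted p = 0.00213). In BPTF KD tumors alone neither passed in BALB/c mice, with *Mki67* at 0.63 (adjusted p = 0.06398). In NSG mice both markers were also called higher in 67NR, by 0.42 for *Mki67* and 0.78 for *Top2a*.

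Of the 7 G1 cyclins and kinases, *Cdk4* and *Ccne1* were higher in 67NR in both hosts. *Cdk4*, the kinase partner of the D cyclins, was at 11.76 to 12.21 in the 9 67NR tumors of NSG mice and at 10.87 to 11.26 in the 9 66cl4 tumors, with no overlap. The difference was 0.86 ± 0.07 SE (1.82-fold, adjusted p = 2.19e-08), the smallest p of any member there. *Ccne1*, the E-type cyclin that activates CDK2, ranged from 7.08 to 7.65 in 67NR and from 6.62 to 6.96 in 66cl4 tumors of BALB/c mice, and from 7.04 to 7.26 and 6.14 to 6.58 in NSG mice. The lines did not overlap in either host, and *Ccne1* was higher by 0.60 ± 0.08 SE in BALB/c mice (adjusted p = 4.62e-05) and by 0.75 ± 0.07 SE in NSG mice (adjusted p = 1.04e-07). Other cyclins were called the other way, each in 1 host. *Ccne2*, which shares the role of *Ccne1*, was lower in 67NR tumors of NSG mice (-0.62 ± 0.21 SE, adjusted p = 0.0209), and *Ccnd3*, a D cyclin, was lower there as well (-0.30 ± 0.08 SE, adjusted p = 0.00362). *Ccne2* had the opposite sign in BALB/c mice (0.36), and its call in NSG mice was lost in 3 of 18 runs that left out a tumor. *Ccnd2* was the 1 member called lower in 67NR in BALB/c mice (-0.42 ± 0.15 SE, adjusted p = 0.0404), and it was at 0.08 in NSG mice. This call was lost with quantile normalization, in BPTF KD tumors alone (-0.03) and in 9 of 18 runs that left out a tumor.

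The replication and nucleotide genes held some of the widest gaps. *Cdc6*, which loads the MCM helicase at origins, was at 8.36, 7.70 and 8.46 in 67NR controls of NSG mice and at 6.20, 6.47 and 6.42 in the 66cl4 controls. The BPTF KD tumors of 67NR, at 7.14 to 8.38, lay above all 6 BPTF KD tumors of 66cl4, at 5.47 to 7.01. *Cdc6* was 1.69 ± 0.21 SE higher in 67NR (3.22-fold, adjusted p = 3.19e-06). The MCM subunits are made to work as 1 ring, yet differed in size of change within a host: *Mcm4* was higher by 0.93 ± 0.19 SE in BALB/c mice (adjusted p = 0.00144) and 1.41 ± 0.15 SE in NSG mice (adjusted p = 4.6e-07), and *Mcm7* by 0.73 ± 0.09 SE in NSG mice (adjusted p = 2.5e-06), while *Mcm5* was at 0.25 and 0.19 and did not pass in either. *Rrm2*, the regulated subunit of ribonucleotide reductase, was 1.34 ± 0.25 SE higher in BALB/c mice (adjusted p = 0.000722). *Tk1*, which salvages thymidine and sits in the same supply route, was lower in 67NR tumors of NSG mice (-0.89 ± 0.13 SE, adjusted p = 1.6e-05), where the 67NR controls were at 9.82, 9.86 and 10.20 and the 66cl4 controls at 10.83, 10.63 and 10.62.

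Among the mitotic members the largest difference was in *Prc1*, which bundles the microtubules of the spindle midzone. Its 67NR controls were at 11.06, 10.98 and 11.52 in BALB/c mice and 11.04, 10.79 and 11.11 in NSG mice, and its 66cl4 controls at 9.14, 9.47 and 9.12 and at 8.34, 8.43 and 8.30. The controls of the lines were apart by more than 1 log2 unit in both hosts. *Prc1* was 1.86 ± 0.35 SE higher in BALB/c mice (3.62-fold, adjusted p = 0.00078) and 2.14 ± 0.21 SE higher in NSG mice (4.41-fold, adjusted p = 1.71e-07). *Mastl*, the Greatwall kinase that protects mitotic phosphorylations, was 1.19 ± 0.19 SE higher in BALB/c mice (adjusted p = 0.000181), and *Cdc20*, the activator of the anaphase-promoting complex, was 0.95 ± 0.12 SE higher in NSG mice (adjusted p = 4.26e-06). Of the checkpoint genes, *Bub1* and *Bub1b* did not pass in either host, and *Mad2l1* was called higher in BALB/c mice (0.73) but not in NSG mice (0.04). *Kif11*, the motor that separates the spindle poles, and *Birc5*, survivin of the chromosomal passenger complex, were lower in 67NR tumors of NSG mice by limma (-0.62 ± 0.13 SE, adjusted p = 0.000412, and -0.40 ± 0.15 SE, adjusted p = 0.0367). The call of *Birc5* was lost with quantile normalization, in a fit of all 36 tumors and in controls alone.

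The inhibitors among the members were also higher in 67NR. *Cdkn1a* was at 10.43 to 12.19 in the 9 67NR tumors of BALB/c mice and at 10.04 to 10.38 in the 9 66cl4 tumors, which did not overlap, and was 1.49 ± 0.23 SE higher in 67NR (2.81-fold, adjusted p = 0.000111). In NSG mice it was called 1.06 higher. *Cdkn2a* was called higher in both hosts, at a low level (4.08 to 5.85 in 67NR and 4.13 to 4.66 in 66cl4). *Myc* was 1.37 ± 0.18 SE higher in 67NR in NSG mice (2.59-fold, adjusted p = 4.29e-06), where its controls were at 10.39, 10.27 and 10.52 against 8.28, 9.24 and 9.38 in 66cl4, and 0.43 higher in BALB/c mice without passing (adjusted p = 0.162).

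**Figure D3:**
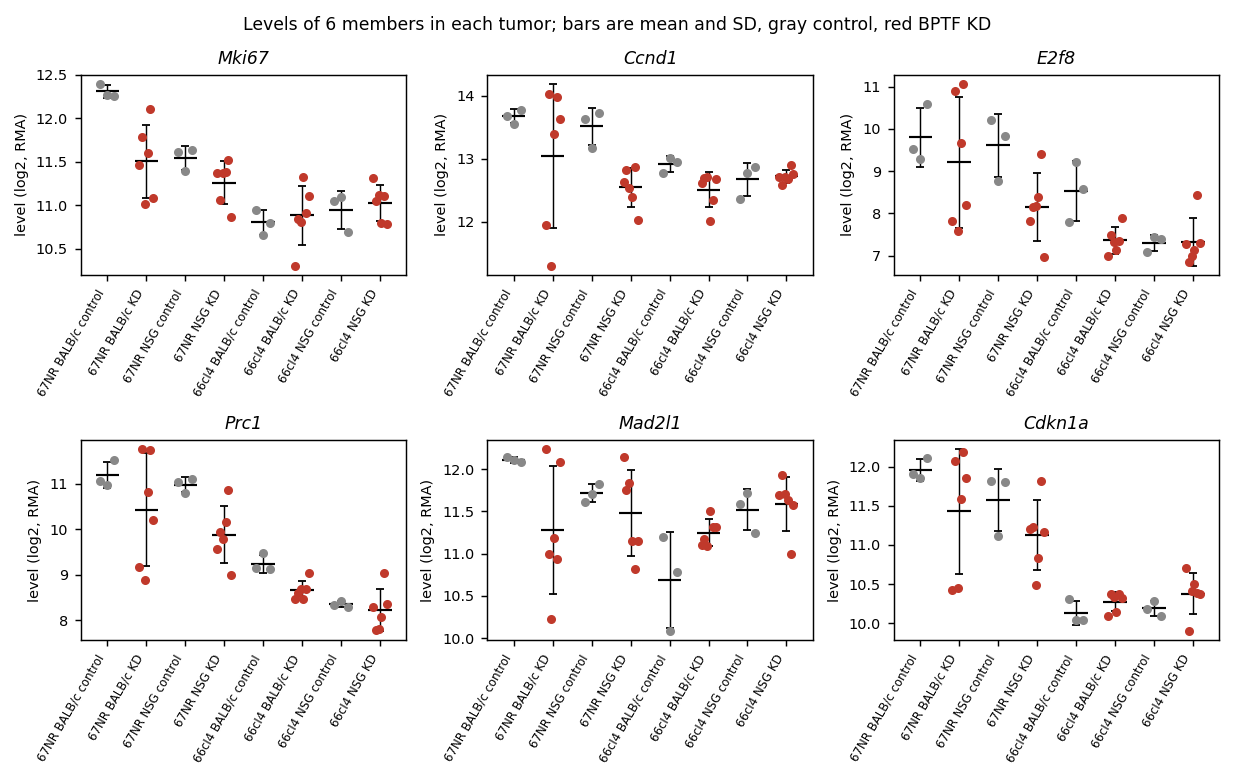
Levels of 6 members in each of 36 tumors (log2, RMA) by group, with points for tumors, bars for the mean and SD, gray for control and red for BPTF KD. Control points lie close together in most groups, and the red points of 67NR tumors of BALB/c mice spread the most.

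The comparison of BPTF KD with control asked whether the label went with the level of these genes. In 67NR tumors of BALB/c mice none of the 43 members passed by limma, as for 0.0% of all genes, and 5 members (11.6%) had an unadjusted p under 0.05 against 7.75% of all genes. The 5 ranged from 2 (without control replicates 1 or 2, for example) to 10 (without BPTF KD replicate 6) when a tumor was left out. The sign was lower in BPTF KD for 39 of 43 members, with a median of -0.48 (-0.003 over all genes) and a range of -1.01 to 0.40. Without BPTF KD replicate 3, the tumor with the high skeletal muscle list, the sign was still lower for 39 of 43 but the median was -0.28. All 6 BPTF KD tumors lay below every control for 4 members (9.3%), *Mki67*, *Ccna2*, *Mastl* and *Kif20a*, against 2.83% of all genes. *Mki67* was at 12.40, 12.27 and 12.26 in the controls and at 11.01, 11.53 and 12.11 (lowest, median and highest) in BPTF KD tumors. The groups did not overlap, and the difference was -0.80 ± 0.24 SE (adjusted p = 0.609 by limma, and exact permutation p = 0.03571 or 0.1428 adjusted over 8 tests). *Mastl* was at 9.18, 9.17 and 9.06 in controls and at 7.15, 8.41 and 8.51 in BPTF KD tumors, again without overlap (-0.96 ± 0.29 SE, adjusted p = 0.609). *Ccna2*, the cyclin of S phase and mitotic entry, was at 11.34, 11.33 and 11.15 in controls and at 9.70, 10.80 and 10.97 in BPTF KD tumors (-0.68 ± 0.27 SE, adjusted p = 0.619). A fit of all 36 tumors, in which the 8 groups shared an estimate of the spread, called 4 members lower, *Mastl* (adjusted p = 0.0127), *Mki67* (0.013), *Kif20a* (0.0244) and *Top2a* (0.0477), and 607 genes in all (4.9%).

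Markers of other cell types moved with this comparison. The T and NK cell list was at 7.31 to 7.75 in the controls and at 7.84 to 10.43 in the BPTF KD tumors, with no overlap, and stood highest in BPTF KD replicate 3. The fibroblast list was at 9.17 to 9.52 in controls and 8.96 to 11.41 in BPTF KD tumors. Their part in the levels of the cell cycle genes was not tested.

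In 67NR tumors of NSG mice 1 of 43 members fell, where 0.549% of all genes were called lower and 0.589% higher. That gene was *Ccnd1*, the D cyclin of entry from G1, at 13.64, 13.18 and 13.72 in controls and at 12.03, 12.585 and 12.87 in BPTF KD tumors. All 6 BPTF KD tumors were below every control, and the difference was -0.96 ± 0.19 SE (1.95-fold lower, adjusted p = 0.041). This call was not made in a fit of all 36 tumors or with RNA integrity as a covariate, and it was lost in 6 of 9 runs that left out a tumor. The sign was lower for 41 of 43 members, with a median of -0.35 (0.02 over all genes, and -0.24 for the members without BPTF KD replicate 6), and 16 members (37.2%) had an unadjusted p under 0.05 against 14.1% of all genes, a count that fell to 5 without control replicate 3. Of the 8 mitotic entry genes 7 were among these 16, and none of the 8 licensing and clamp genes or of the 4 checkpoint genes was. The RNA integrity measure described below was at 0.46 to 0.54 in these controls and at 0.41 to 0.81 in the BPTF KD tumors. Its r with members in this set ran from -0.75 to 0.38 for mitotic entry genes. It ran from -0.74 to 0.33 for licensing and clamp genes and from -0.84 to 0.62 for checkpoint genes. Its part was not tested. All 6 BPTF KD tumors were below every control for 8 members (18.6%), against 3.1% of all genes, and besides *Ccnd1* these were *Rrm1*, *Ccna2*, *Ccnb2*, *Mastl*, *Aurka*, *Birc5* and *Cdkn2a*. *Cdkn2a* was at 5.17, 4.68 and 4.78 in controls and 4.08, 4.355 and 4.52 in BPTF KD tumors (-0.54 ± 0.14 SE, adjusted p = 0.102). *Ccna2* was at 10.78, 10.73 and 10.92 in controls and 10.35, 10.435 and 10.59 in BPTF KD tumors (-0.35 ± 0.10 SE, adjusted p = 0.122). The fibroblast list was at 9.87 to 10.46 in controls and 10.35 to 11.45 in BPTF KD tumors, and the epithelial list at 5.70 to 5.97 and 6.17 to 6.79, and their part was not tested.

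In 66cl4 tumors of BALB/c mice no member passed by limma, against 0.113% of all genes called higher and 0.0726% called lower, and 14 members (32.6%) had an unadjusted p under 0.05 against 25.8% of all genes, or 6 members without control replicate 2. Signs were mixed, lower for 24 and higher for 19, with a median of -0.05 (0.03 over all genes). All 6 BPTF KD tumors were below every control for *Ccnd1*, *Rrm2*, *Plk1* and *Prc1* (9.3%), against 4.9% of all genes. *Rrm2* was at 10.41, 10.62 and 10.37 in controls and at 9.52, 9.685 and 10.06 in BPTF KD tumors, a difference of -0.70 ± 0.14 SE that missed the threshold (adjusted p = 0.0648). The T and NK cell list was at 6.93 to 7.11 in controls and 7.17 to 8.31 in BPTF KD tumors, without overlap, and its part was not tested. *E2f8*, an E2F family member that represses E2F targets, was at 7.80, 9.21 and 8.58 in controls and 6.98, 7.335 and 7.89 in BPTF KD tumors (-1.17 ± 0.27 SE, adjusted p = 0.0682). *Prc1* was at 9.14, 9.47 and 9.12 in controls and 8.47, 8.645 and 9.03 in BPTF KD tumors (-0.58 ± 0.14 SE, adjusted p = 0.0696). This comparison turned on single tumors. Without control replicate 1, limma called 10 members (23.3%) and 2208 genes (17.8%), with *E2f8* at -1.53, *Rrm2* at -0.72 and *Myc* at -1.08 lower and *Cdk1* at 0.79, *Mad2l1* at 0.82 and *Mcm5* at 0.41 higher. Without BPTF KD replicate 6 it called 5 members (11.6%) and 2.68% of all genes. With the RNA integrity measure described below as a covariate, 0 members and 0.0% of all genes were called. That measure was at 0.47 in control replicate 2 and at 0.72 to 0.885 in the other tumors of this set. Its part in these calls was not tested.

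In 66cl4 tumors of NSG mice no member passed by limma, as for 0.0% of all genes, and none had an unadjusted p under 0.05, against 7.68% of all genes. The differences ran from -0.27 to 0.23 around a median of -0.01 (0.01 over all genes). *Birc5* was at -0.27 ± 0.13 SE (adjusted p = 0.677), *Cdk4* at -0.18 ± 0.10 SE (adjusted p = 0.697) and *Foxm1*, the transcription factor of the mitotic genes, at 0.23 ± 0.12 SE (adjusted p = 0.705). *Cdk4* was the 1 member (2.33%) with all 6 BPTF KD tumors below every control, against 1.05% of all genes.

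**Figure D4:**
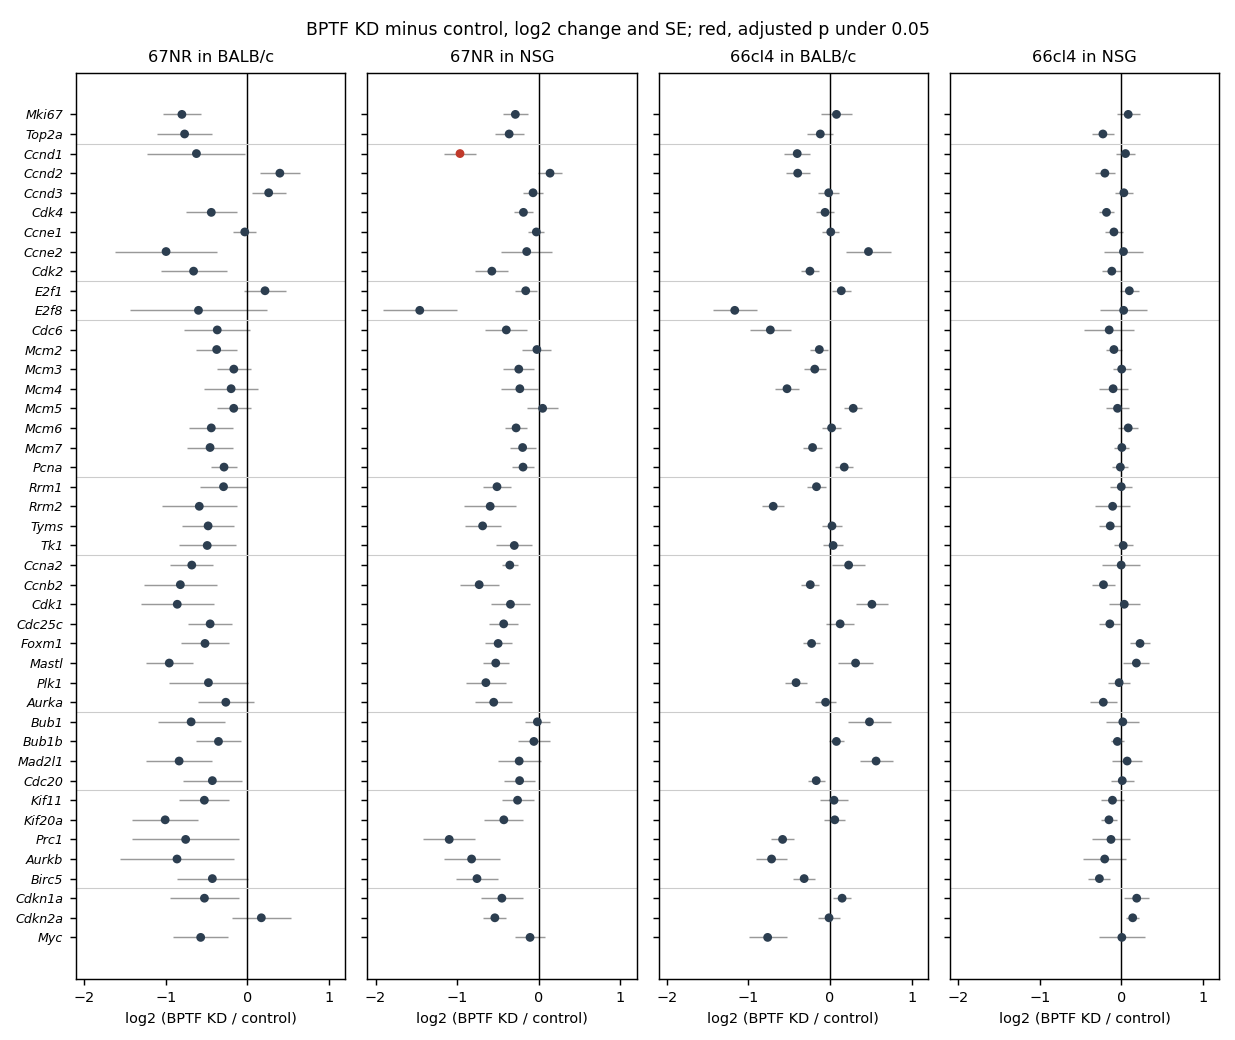
BPTF KD minus control for each member (log2 change, bars for the SE) in the 4 pairings of cell line and host. Points lie mostly left of 0 in both 67NR panels, 39 and 41 of 43, and on both sides in the 66cl4 panels, 24 of 43 lower in each, and the red point in 67NR NSG is Ccnd1.

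Followed across the 4 pairings, 6 genes had differences of either sign. *Mki67* was at -0.80 and -0.29 in 67NR tumors of BALB/c and NSG mice and at 0.08 in 66cl4 tumors of both hosts. *Ccnd1* was at -0.63, -0.96, -0.40 and 0.05 in 67NR BALB/c, 67NR NSG, 66cl4 BALB/c and 66cl4 NSG tumors. In the same order, *Ccnd2*, a D cyclin, was at 0.40, 0.14, -0.40 and -0.20, and *Cdkn1a* at -0.53, -0.45, 0.15 and 0.19. *Cdkn2a* was at 0.17, -0.54, -0.01 and 0.14, and *Myc* at -0.57, -0.11, -0.76 and 0.005. Of these 24 differences, that of *Ccnd1* in 67NR tumors of NSG mice passed.

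Averaged over hosts, no member passed in 67NR, against 0.0161% of all genes called in each direction, with 17 (39.5%) at an unadjusted p under 0.05 against 14.9% of all genes, or 10 without replicate 3 of the NSG controls. The sign was lower for 40 of 43 (median -0.41, against 0.015 over all genes). *Mastl* was at -0.74 ± 0.17 SE (adjusted p = 0.113), *Mki67* at -0.55 ± 0.14 SE (0.122) and *Ccna2* at -0.52 ± 0.14 SE (0.136). In 66cl4 none passed either, against 0.202% of all genes called higher and 0.0726% lower, with 11 (25.6%) at an unadjusted p under 0.05 against 21.4% of all genes, or 5 without replicate 2 of the BALB/c controls. *Birc5* was at -0.29 ± 0.10 SE (adjusted p = 0.139), *Ccnd2* at -0.30 ± 0.10 SE (0.139) and *Rrm2* at -0.40 ± 0.13 SE (0.144). Without BPTF KD replicate 5 of the NSG tumors 7 members (16.3%) and 7.38% of all genes were called.

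Whether the effect of the label differed was tested as an interaction. Between hosts no member passed in 67NR or in 66cl4, nor did any gene (0.0% of all genes in each), with 0 and 4 members (9.3%) at an unadjusted p under 0.05, below the 6.89% and 11.9% of all genes. The smallest p were those of *Mki67* (-0.52 ± 0.29 SE, adjusted p = 0.783) and *Cdkn2a* (0.71 ± 0.40 SE, 0.788) in 67NR, and of *Foxm1* (-0.46 ± 0.16 SE, 0.378) and *E2f8* (-1.20 ± 0.43 SE, 0.378) in 66cl4. Between lines in BALB/c mice none passed (0.0% of all genes), with 9 (20.9%) at an unadjusted p under 0.05 against 9.64% of all genes (4 without replicate 2 of the 66cl4 controls), and *Mastl* was at -1.27 ± 0.38 SE (adjusted p = 0.485) and *Mad2l1* at -1.40 ± 0.48 SE (0.485). Between lines in NSG mice 2 members passed, both lower in 67NR, against 0.379% of all genes lower and 0.581% higher. These were *Ccnd1* (-1.01 ± 0.23 SE, adjusted p = 0.0463) and *Cdkn2a* (-0.68 ± 0.16 SE, adjusted p = 0.0478). Neither call was made in a fit of all 36 tumors, with quantile normalization or with RNA integrity as a covariate.

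BALB/c and NSG hosts were then compared within each line. In 67NR tumors 1 of 43 members was higher in BALB/c mice and none was lower, where 10.3% of all genes were called higher and 8.08% lower. It was *Mki67*, at 12.26 to 12.40 in controls of BALB/c mice and 11.39 to 11.64 in controls of NSG mice, which did not overlap, and at 11.01 to 12.11 and 10.86 to 11.52 in BPTF KD tumors, which did (0.51 ± 0.14 SE, adjusted p = 0.0219). *Rrm2* was at 0.75 ± 0.30 SE (0.0926) and *Ccne1* at 0.19 ± 0.08 SE (0.111). *Mki67* was not called in BPTF KD tumors alone (0.25), or without replicate 1 of the BALB/c controls (0.48) or replicate 2 of the NSG controls (0.47). The RNA integrity measure described below, the mean 3′ minus 5′ signal of actin and *Gapdh*, was at 0.77 to 0.865 in the BALB/c controls and 0.46 to 0.54 in the NSG controls, without overlap, and at 0.545 to 1.315 and 0.41 to 0.81 in the BPTF KD tumors. With it as a covariate 10 members (23.3%) were called, and 27.0% of all genes.

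In 66cl4 tumors 12 of 43 members were higher and 9 were lower in BALB/c than in NSG mice, where 16.1% and 15.1% of all genes were called. The median difference was 0.013, and 0.008 over all genes. Among those higher were *Ccnd2* (0.52 ± 0.10 SE, adjusted p = 0.000908), *Rrm2* (0.64 ± 0.13 SE, 0.00199), *Prc1* (0.66 ± 0.15 SE, 0.00276) and *Ccne1* (0.34 ± 0.07 SE, 0.00292). *Foxm1* (0.29), *Myc* (0.70), *Plk1* (0.31) and *Mcm4* (0.39) were higher with adjusted p of 0.0104 to 0.0203, and *Cdc6*, *E2f8*, *Aurkb* and *Cdk2* were also called. *Rrm2* was at 10.41, 10.62 and 10.37 in the BALB/c controls and at 9.58, 9.82 and 9.20 in the NSG controls. Those groups did not overlap, and the BPTF KD tumors, at 9.52 to 10.06 and 9.06 to 9.97, did. The 3 checkpoint genes *Bub1*, *Bub1b* and *Mad2l1*, which hold anaphase until chromosomes are attached, were lower in BALB/c mice, as were *Ccne2*, *Kif20a*, *Mastl*, *Cdc25c*, *Pcna* and *Mcm5*. *Ccne2* was at 9.80, 8.35 and 9.49 in BALB/c controls and 10.74, 10.53 and 10.01 in NSG controls (-0.99 ± 0.20 SE over both labels, adjusted p = 0.0015). *Mad2l1* was at -0.59 ± 0.15 SE (0.00598), *Bub1b* at -0.22 ± 0.06 SE (0.00638), *Kif20a* at -0.31 ± 0.08 SE (0.0068), *Mastl* at -0.55 ± 0.14 SE (0.00803) and *Bub1* at -0.68 ± 0.18 SE (0.00908). *Cdc25c* (-0.40) and *Pcna* (-0.24) had adjusted p of 0.0103 and 0.0134.

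This comparison had limits that bear on all of those members. The skeletal muscle list was at 6.55 to 11.16 in the BALB/c tumors and 5.06 to 7.12 in the NSG tumors, and its part was not tested. The direction of the calls divided by the sign of each member's r with the RNA integrity measure, over 36 deviations from group means. Every member called higher had a negative r, from -0.75 (*Aurkb*) to -0.08 (*Ccne1*). Those called lower had a positive r, from 0.07 (*Kif20a*) to 0.69 (*Mad2l1*), except *Cdc25c* (-0.12). The measure itself averaged 0.67 in controls and 0.792 in BPTF KD tumors of BALB/c mice, and 0.643 and 0.615 in those of NSG mice, with overlapping ranges. Members called higher, all with a negative r, were thus higher in the host where the mean of the measure was higher. The part of RNA integrity in these differences was not tested. A fit of all 36 tumors called 6 members (14.0%, and 16.2% of all genes), controls alone 4 (9.3%, and 2.53%) and BPTF KD tumors alone 3 (6.98%, and 11.1%), and without replicate 2 of the BALB/c controls 13 (30.2%, and 20.2%) were called. With RNA integrity as a covariate 26 (60.5%, and 38.5%) were called.

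Within groups, members were compared by the correlation of their deviations from the group mean over 36 tumors. This is given as a description without p-values because the members were read on the same arrays, from tumors of unlike RNA quality and tissue content. The median over 903 pairs of members was 0.466, against 0.008 over all genes, and 84.6% of pairs were above 0. Without 67NR BALB/c BPTF KD replicate 3 the median was 0.34. The most alike were *Prc1* with *Aurkb*, kinase of the chromosomal passenger complex (r = 0.963), *Prc1* with *Plk1* (0.96) and *Ccne2* with *Mad2l1* (0.943). Also closely alike were *Prc1* with *E2f8* (0.938), *Cdk1* with *Mad2l1* (0.932), *Pcna* with *Mad2l1* (0.931) and *Birc5* with *Ccnb2* (0.929). Some pairs ran against each other, among them *Bub1* with *Ccnd3* (-0.741) and *Ccne2* with *Ccnd2* (-0.669).

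The levels of many members went with a measure of RNA integrity, a pattern looked for after the data were seen. The arrays carry probe sets at the 3′ and 5′ ends of the actin and *Gapdh* transcripts, and the mean 3′ minus 5′ difference (log2) is larger where RNA is shorter or less fully copied. It ranged from 0.41 to 1.315 over the 36 tumors. Of 43 members, 19 (44.2%) correlated negatively with it in all 4 pairings of line and host, against 22.6% of all genes, and 6 (14.0%) correlated positively in all 4, against 27.6%. Over the 36 deviations *Aurkb* had r = -0.75, *Prc1* -0.70, *Aurka* -0.68 and *Plk1* -0.63, while *Mad2l1* had 0.69, *Bub1* 0.68, *Ccne2* 0.66 and *Pcna*, the sliding clamp of the replication fork, 0.63. Among the 66cl4 tumors of BALB/c mice, control replicate 2 had the lowest 3′ minus 5′ difference, 0.47 against 0.72 to 0.885 in the others, and it had the highest *E2f8* (9.21) and the lowest *Ccne2* (8.35) and *Mad2l1* (10.08) of the 9 tumors. In the comparison of lines, adding this measure as a covariate left 32 members called in each host, 28 and 31 of them also called without it.

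**Figure D5:**
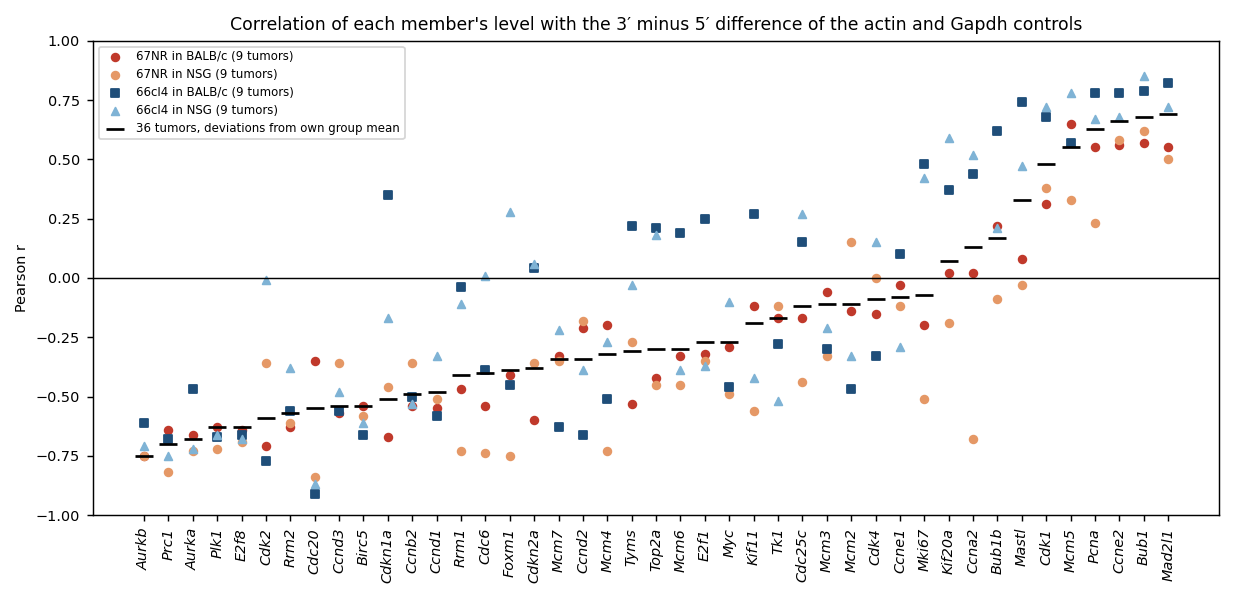
Pearson r of the level of each member with the RNA integrity measure (3′ minus 5′ signal, actin and Gapdh), with colored points for the 4 pairings of line and host (9 tumors each) and black bars for the 36 deviations from group means. The members run from -0.75 (Aurkb) at 1 end to 0.69 (Mad2l1) at the other.

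Of 133 other genes of the pathway, 115 were read, and they are given in 5 lists. In 67NR against 66cl4 tumors of BALB/c mice 58 were higher and 8 were lower, where 13.0% and 13.5% of all genes were, and in NSG mice 59 and 19, against 24.5% and 26.6%. The replication fork and origin list had 19 of 34 higher and none lower in each host. The mitosis and cytokinesis list had 31 of 49 higher and none lower in BALB/c mice, and 27 higher and 5 lower in NSG mice. *Cdc45*, which joins MCM in the active helicase, was higher by 1.17 ± 0.13 SE in BALB/c mice (adjusted p = 5.42e-06) and 1.62 ± 0.09 SE in NSG mice (1.02e-10), and *Dbf4*, which activates the CDC7 kinase at origins, by 1.22 ± 0.10 SE in NSG mice (1.04e-08). *Wee1*, the kinase that restrains CDK1, was 1.87 ± 0.13 SE higher in NSG mice (2.92e-09).

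A list of other CDK inhibitors and kinases held both brakes and activators. Of its 9 genes, 5 were lower in 67NR in BALB/c mice and none higher, where 13.5% of all genes were lower and 13.0% higher. In NSG mice 8 were lower and 1, the kinase gene *Cdk6*, higher, against 26.6% and 24.5% of all genes. The lower genes included the inhibitors *Cdkn1b*, *Cdkn1c* and *Cdkn2c* and, in both hosts, *Cdk7* and *Mnat1* of the CDK-activating kinase. *Cdkn1b*, which encodes p27, was at -1.10 ± 0.12 SE in BALB/c mice (adjusted p = 2.63e-06) and *Cdkn2c*, which encodes p18, at -1.04 ± 0.11 SE (2.69e-06). Of 12 p53 targets, 7 were higher in 67NR in each host, above the shares of all genes. There were 2 lower in BALB/c mice and 3 lower in NSG mice, near those shares. *Phlda3* was at 1.89 ± 0.13 SE in NSG mice (1.06e-09), and *Sesn1* was at -1.20 ± 0.11 SE in BALB/c mice (4.1e-07). The list of RB, E2F and B-Myb genes had 1 of 11 higher and 1 lower in BALB/c mice, below the shares of all genes. In NSG mice it had 5 higher and 3 lower, the lower ones near the share of all genes.

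BPTF KD went with few calls among these genes. In 67NR tumors of NSG mice *Nuf2*, a kinetochore protein, fell by 0.82 on the log2 scale (SE 0.17, adjusted p = 0.0425) and was the 1 gene of 115 called (0.87%, against 1.14% of all genes), and in 66cl4 tumors averaged over hosts *Timeless*, of the replication fork protection complex, fell by 0.28 (SE 0.06, adjusted p = 0.0367), where 0.274% of all genes were called. In 67NR tumors of BALB/c mice limma called none of 115, while 27 (23.5%) had an unadjusted p under 0.05 against 7.75% of all genes, and all 49 mitosis and cytokinesis genes had the lower sign (median -0.69). In 66cl4 tumors of BALB/c and NSG mice and in 67NR tumors averaged over hosts none passed, with 32 (27.8%), 1 (0.87%) and 49 (42.6%) at an unadjusted p under 0.05 against 25.8%, 7.68% and 14.9% of all genes. Between hosts, 6 were higher and 5 lower in 67NR tumors of BALB/c mice, below the 10.3% and 8.08% of all genes, among them *Pmaip1* (1.57 ± 0.24 SE, adjusted p = 0.000324) and *Cdkn1b* (-0.83 ± 0.14 SE, 0.000579). In 66cl4 tumors 10 were higher and 35 lower in BALB/c mice, where 16.1% and 15.1% of all genes were, and 7 of the 9 CDK inhibitors and kinases were among the lower ones, with *Cdkn1b* at -0.57 ± 0.07 SE (2.26e-05).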

How the data were processed

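Total RNA of 36 tumors, from which the authors had cut necrotic tissue, was labeled (500 ng) and hybridized to Affymetrix mouse arrays. The authors deposited log2 values of 22690 probe sets after RMA, a tool the submitters' processing notes give with no version, and these were used unfiltered. A gene took its brightest probe set with 1 symbol, updated through the Entrez ID with RefSeq (12394 genes, 9 of 43 members from _x_at or _s_at probe sets that can bind related transcripts).

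Comparisons were fitted with limma 3.58.1 in R 4.3.3, in 9 tumors for BPTF KD and in 18 for host, line and interactions, with p-values adjusted by Benjamini-Hochberg over all genes (threshold 0.05). The fit was tested on simulated data. *Bptf* and *Mki67* were also compared by two-sided exact permutation over 84 splits. Tables were made in Python 3.11.15 with pandas 2.3.3, numpy 2.4.6 and scipy 1.17.1, and figures with matplotlib 3.10.9. The members, the lists and the tests were chosen with earlier results of these data known.

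Members were named where they passed, up to 8 of smallest p in each direction (5 for interactions), or else the 3 of smallest p (2 for interactions). *Mki67*, *Ccnd1*, *Ccnd2*, *Cdkn1a*, *Cdkn2a* and *Myc* were described in each BPTF KD comparison, and up to 4 other pathway genes of smallest p in each. Members added after their values were seen are those named for a lost call, for a likeness or for the RNA measure, and *Mcm5*, *Bub1*, *Bub1b* and *Mad2l1* in the line comparison. Alternatives were a fit of all 36 tumors, leaving out the dimmest 25% of genes, quantile normalization, subtraction of array medians, the mean of probe sets, an RNA integrity covariate, a replicate block, the methods' t-test, controls or BPTF KD tumors alone, and each tumor left out.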

Additional observations from a re-analysis of the deposited data

Results flagged for a closer look

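Of 172 tests for a member whose highest or lowest tumor stood apart from the rest of its group of 6 BPTF KD tumors (the gap to the nearest tumor as a share of the range, by Dixon's criterion), 16 were positive (9.3%), against 6.97% of such tests over all genes, where chance gives about 1 in 20 for independent tests. The members varied together, and 14 of the 16 were in 3 tumors. Replicate 3 of the 67NR BALB/c tumors, which had the high skeletal muscle and T and NK cell lists, was apart and low for *Cdk4* (10.52, the others from 11.59 to 12.09), *Bub1b* (7.71, from 8.63), *Kif11* (7.26, from 8.35), *Kif20a* (7.32, from 8.89) and *Mastl* (7.15, from 8.11). Replicate 6 of the 67NR NSG tumors was low for *Top2a* (10.96, the others from 11.53 to 11.82), *Mcm7* (11.33, from 11.82), *Kif11* (7.85, from 8.51) and *Birc5* (9.50, from 10.49). Replicate 5 of the 66cl4 NSG tumors, with the lowest 3′ minus 5′ difference of its group (0.45), was low for *Ccne2* (9.68, the others from 10.39), *Cdk1* (11.45, from 12.10) and *Bub1b* (8.68, from 8.76) and high for *Ccnd2* (10.49, the others up to 10.13) and *E2f8* (8.44, up to 7.30). Replicate 6 of the 66cl4 BALB/c tumors was high for *Mcm3* (10.32, the others up to 9.88), and replicate 2 of the 67NR NSG tumors was high for *E2f1* (8.18, the others up to 7.82).

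The effect of BPTF KD in NSG mice differed between the lines for 2 members by the interaction test in limma. The difference was -1.01 for *Ccnd1* and -0.68 for *Cdkn2a*, both with a lower change in 67NR. The call of *Ccnd1* was lost in 14 of 18 runs that left out a tumor, and that of *Cdkn2a* in 15.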

How the results depend on the processing

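Of 1658 recomputed values of 67 gene results, none reversed its sign, 1507 stayed on their side of the threshold, 130 lost it and 21 gained it. The number of members called under another setting was as follows, with the shares of members and of all genes in brackets. The cause of each change was not tested unless the setting removed tumors. In a fit of all 36 tumors BPTF KD against control called 4 members in 67NR BALB/c (9.3%, and 4.9% of all genes). It called 0 in 67NR NSG (1.1% of all genes) and 8 in 67NR averaged over hosts (18.6%, and 5.9%). The host comparison called 3 in 67NR (6.98%, and 26.8%) and 6 in 66cl4 (14.0%, and 16.2%). The interaction with line in NSG mice called 0 (0.0403% of all genes). With RNA integrity as a covariate 0 were called in 67NR NSG, 10 for the host in 67NR and 0 for the interaction. The interaction called 0 with quantile normalization and 1 each without the dimmest 25% of genes and with array medians subtracted. The mean of probe sets called 2 for the host in 67NR. Controls alone called 5 for the host in 67NR and 4 in 66cl4, and BPTF KD tumors alone called 3 for the host in 66cl4 and 8 for the line in BALB/c mice. The methods' t-test called 0 members after Benjamini-Hochberg adjustment in each of the 4 BPTF KD comparisons, 67NR NSG included (0.0807% of all genes there). At an unadjusted p under 0.05 it had 3 in 67NR BALB/c, 15 in 66cl4 BALB/c, 12 in 67NR NSG and 1 in 66cl4 NSG. The share of all genes under that p by the t-test was not counted.

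Leaving out each tumor in turn gave 0 to 10 members for BPTF KD in 66cl4 BALB/c. There it called 10 (23.3%, and 17.8% of all genes) without control replicate 1 and 5 (11.6%, and 2.68%) without BPTF KD replicate 6. In 67NR NSG it gave 0 to 5, with 5 (11.6%, and 5.0%) without BPTF KD replicate 5. The 0 came without control replicates 1 or 3 or BPTF KD replicates 1 to 4 (0.0403% to 0.67% of all genes). In 67NR averaged over hosts it gave 0 to 1, with 1 (2.33%, and 0.0888% to 1.11%) without BALB/c BPTF KD replicates 2, 3 or 6. In 66cl4 averaged over hosts it gave 0 to 7, with 7 (16.3%, and 7.38%) without NSG BPTF KD replicate 5. There 2 (4.65%, and 4.78%) were called without BALB/c control replicate 1. For the host in 67NR, leaving out a tumor gave 0 to 3 members. It gave 2 (4.65%, and 22.0%) and 3 (6.98%, and 19.9%) without BALB/c BPTF KD replicates 1 and 3. For the host in 66cl4 it gave 13 (30.2%, and 20.2%) to 23. It gave 21 to 36 for the line in BALB/c, 29 to 33 for the line in NSG and 0 to 3 for the interaction with line in NSG. Over all alternatives and left-out tumors together, all genes called in BPTF KD against control ran from 0 to 2208 in 66cl4 BALB/c (23 as reported), from 5 to 685 in 67NR NSG (141), from 0 to 731 in 67NR averaged (4) and from 0 to 915 in 66cl4 averaged (34), and were up to 607 in 67NR BALB/c (0) and up to 4 in 66cl4 NSG (0). The 607 and 731 came from the fit of all 36 tumors, the 685 from the replicate number as a block, and the 2208, 915 and 4 from left-out tumors. For the host they ran from 927 to 3342 in 67NR (2275) and from 314 to 4775 in 66cl4 (3859), for the line from 1741 to 4256 in BALB/c (3287) and from 4488 to 6763 in NSG (6334), and for the interaction with line in NSG from 5 to 317 (119). Subtracting array medians moved the median of all genes in the line comparison in NSG mice from -0.04 to -0.11.

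A replicate block was fitted although the numbers are only names: same-numbered tumors of the groups correlated at -0.451 to 0.268, over 0.1 in 3 of 12 pairs, and 2 of 12 were most alike to their own number. With the replicate block 3 members (6.98%, and 5.53% of all genes) were called for BPTF KD in 67NR NSG. It called 11 (25.6%, and 17.7%) for the host in 66cl4 and 15 (34.9%, and 15.8%) for the line in BALB/c. For the interaction in NSG it called 0 (0.726% of all genes), and no other count of members moved by more than 1.5 times.

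In simulated data 40% of genes changed by 1 log2 unit were called in the comparison of 67NR BALB/c, 82% in 66cl4 BALB/c, 82% in 67NR NSG and 92% in 66cl4 NSG. Of 40 further probe sets of 22 members, 36, 30, 34 and 29 had the sign of the one used in these 4 comparisons, in the order 67NR BALB/c, 66cl4 BALB/c, 67NR NSG and 66cl4 NSG, and 40 and 36 in the line comparisons in BALB/c and NSG mice. They had it in 27 and 32 of 40 in the host comparisons of 67NR and 66cl4.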
